A study of Mus musculus with 9 samples.

Results

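Progenitors carrying both Flk1 and Pdgfra (Flk1+Pdgfra+) were compared with progenitors carrying Flk1 without Pdgfra (Flk1+) across every measured gene. Both were sorted from a cardiac differentiation of E14.1, an embryonic stem cell line of 129/Ola mice, and neither group carried a transgene or a treatment that the labels name. The comparison used 6 of the 9 arrays of the series, chosen by their titles: 3 of Flk1+Pdgfra+ and 3 of Flk1+, each numbered 1 to 3. The other 3 arrays held cTnT+ cardiomyocytes cultured on from the Flk1+Pdgfra+ fraction, and they entered the tests only through the shared estimate of the spread. Each array, an Affymetrix Mouse Exon 1.0 ST, gave log2 expression values for 14860 genes with exactly 1 symbol. Technical replicates were not run, per the series text. Separate differentiations for the arrays of a group are not stated, and the p-values therefore measure only the spread of these samples, part of which may be technical. In sorted bulk RNA, fewer cells of a type and less RNA per cell cannot be told apart.

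Flk1, encoded by Kdr, is a receptor for vascular endothelial growth factors. In the embryo it marks mesoderm that gives rise to blood, vessels and heart. Pdgfra, a receptor for platelet-derived growth factors, marks mesoderm of the paraxial and cardiac lineages, and cells that keep Flk1 and lose Pdgfra are known as sources of endothelium and blood. The transcription factor Mesp1 acts in the earliest cardiovascular mesoderm, whereas the angiopoietin receptor Tek and the ETS factor Fli1 act in endothelial and blood cells.

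The third array of each gate stood apart, and single-array values are therefore given for the leading genes. Other genes are given by their fold alone, which does not show such a shift. Across genes, Flk1+Pdgfra+ 1 and 2 correlated at 0.997 and Flk1+Pdgfra+ 3 correlated with them at 0.987 and 0.988. Flk1+ 1 and 2 correlated at 0.996, and Flk1+ 3 correlated with them at 0.973 and 0.979. That array was about as near to the Flk1+Pdgfra+ arrays, with which it correlated at 0.974 to 0.975. Genes are not independent replicates. On the first principal component of the 6 arrays, with 63.9% of the variance, the Flk1+Pdgfra+ arrays lay at 0.22, 0.21 and 0.35 and the Flk1+ arrays at -0.37, -0.36 and -0.05. The second component, with 22.6%, placed Flk1+Pdgfra+ 3 at -0.08 and Flk1+ 3 at -0.34, below their group's other arrays.

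The genes of the gates and of the lineages were read first. Pdgfra was at 11.14, 11.07 and 11.84 on Flk1+Pdgfra+ 1, 2 and 3, against 6.55, 6.99 and 7.35 on Flk1+ 1, 2 and 3 (transcript cluster 6931740, on chromosome 5). Mesp1 was at 10.25, 10.21 and 10.41 on Flk1+Pdgfra+ 1, 2 and 3, against 6.39, 6.21 and 6.36 on Flk1+ 1, 2 and 3 (transcript cluster 6968734, chromosome 7). Neither gene's groups overlapped, and Pdgfra was 20.9-fold and Mesp1 15.7-fold higher in Flk1+Pdgfra+ (differences of 4.39 ± 0.27 (SE) and 3.97 ± 0.09 (SE) on the log2 scale, adjusted p = 0.000327 and 7.62e-07 by limma with Benjamini-Hochberg adjustment over all genes). Kdr was at 12.09, 12.14 and 11.69 on Flk1+Pdgfra+ 1, 2 and 3, against 12.33, 12.45 and 12.14 on Flk1+ 1, 2 and 3, a difference of -0.33 ± 0.24 (SE) that did not pass the test (adjusted p = 0.445, limma), so the receptor shared by the gates was read at high levels on all 6 arrays. Tek was at 8.48, 8.74 and 6.47 on Flk1+Pdgfra+ 1, 2 and 3, against 12.14, 12.13 and 11.58 on Flk1+ 1, 2 and 3 (transcript cluster 6915506, chromosome 4). Fli1 was at 9.16, 9.57 and 6.69 on Flk1+Pdgfra+ 1, 2 and 3, against 12.27, 12.31 and 11.87 on Flk1+ 1, 2 and 3 (transcript cluster 6994431, chromosome 9). Both fell in Flk1+Pdgfra+, Tek 16.6-fold and Fli1 12.8-fold (adjusted p = 0.00342 and 0.0110, limma), and on Flk1+Pdgfra+ 3 both lay far below the other arrays of that group. Without Flk1+ 2, Fli1 missed the threshold (adjusted p = 0.0502). On every array Pdgfra thus went with the sort that used it. Mesp1, Tek and Fli1, which the labels do not name, also separated the groups. These markers were chosen with earlier results of these data known, so their values do not test the labels.

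**Figure D1:**
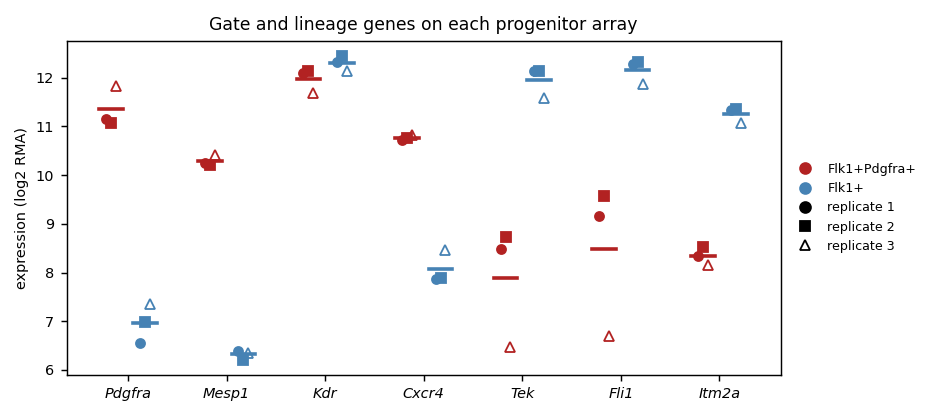
Log2 expression (vertical axis) of 7 genes on each progenitor array, with Flk1+Pdgfra+ in red left of Flk1+ in blue; circles, squares and open triangles are replicates 1, 2 and 3 and bars are group means. Pdgfra, Mesp1 and Cxcr4 lie higher and Tek, Fli1 and Itm2a lower on every Flk1+Pdgfra+ array than on any Flk1+ array, Kdr lies between 11.69 and 12.45, and for Tek and Fli1 the third Flk1+Pdgfra+ array lies lowest.

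The promoters of Pdgfra, which the sort used, and of Mesp1 and Tek, lineage markers read in the sorted cells, are shown. Each runs from 250 bases before to 50 after the start of the gene, 5′ to 3′ along the gene, from RefSeq on build GRCm38.p6, and capitals mark every match to 8 short motifs searched on both strands: CCGGAAGT and TTTCCT (ETS factors), TGATAA, and likewise AGATAA (both read by factors of the Gata family), AGGTGTGA (T-box factors), AACAAAG (Sox factors), CAGATG (an E-box) and TGACTCA (AP-1). The Pdgfra promoter lies at chr5:75152001-75152300 on the plus strand, the Mesp1 promoter at chr7:79793541-79793840 on the minus strand and the Tek promoter at chr4:94739039-94739338 on the plus strand.
Pdgfra: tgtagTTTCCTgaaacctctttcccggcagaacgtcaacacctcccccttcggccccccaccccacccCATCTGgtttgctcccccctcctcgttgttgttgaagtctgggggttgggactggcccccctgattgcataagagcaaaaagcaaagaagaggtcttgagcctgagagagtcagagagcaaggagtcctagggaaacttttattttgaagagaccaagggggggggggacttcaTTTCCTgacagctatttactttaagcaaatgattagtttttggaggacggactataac
Mesp1: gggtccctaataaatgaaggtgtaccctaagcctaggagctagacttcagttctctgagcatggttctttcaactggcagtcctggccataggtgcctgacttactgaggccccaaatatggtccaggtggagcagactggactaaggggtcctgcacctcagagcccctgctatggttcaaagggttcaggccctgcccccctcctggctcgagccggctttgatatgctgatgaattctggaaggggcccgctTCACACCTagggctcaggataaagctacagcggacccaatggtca
Tek: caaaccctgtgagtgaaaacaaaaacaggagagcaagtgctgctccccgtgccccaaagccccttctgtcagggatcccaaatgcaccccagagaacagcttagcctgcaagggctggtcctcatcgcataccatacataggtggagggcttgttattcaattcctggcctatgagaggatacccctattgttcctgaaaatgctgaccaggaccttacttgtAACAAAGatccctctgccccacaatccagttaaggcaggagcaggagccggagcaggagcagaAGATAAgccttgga
The Pdgfra window held TTTCCT at its bases 6 and 243 and the E-box, read as CATCTG, at base 69. The Mesp1 window held the T-box motif, read as TCACACCT on the printed strand, at base 256. The Tek window held AACAAAG at base 224 and AGATAA at base 287. A match is a stretch of letters, not a site shown to be used.

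In all, 690 genes (4.64% of those tested) were higher and 872 (5.87%) lower in Flk1+Pdgfra+ at an adjusted p under 0.05 (limma), together 10.5%, and "rose" and "fell" are kept below for such genes. The median difference of all genes was 0.07. At least 2-fold changes were called for 648 genes (4.36%), 197 upward (1.33%) and 451 downward (3.03%). Differences of at least 2 on the log2 scale were called for 33 rises and 150 falls, of at least 3 for 7 rises and 46 falls, and of at least 4 for 3 rises and 6 falls. The median called rise was 0.68 and the median called fall -1.04. Irrespective of the test, the 3 arrays of each group did not overlap for 3004 genes higher (20.2%) and 2096 lower (14.1%) in Flk1+Pdgfra+. All 690 called rises and all 872 called falls were among these, so a lack of overlap adds nothing to a call.

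How many genes passed depended on single arrays, and more so for rises. Rises numbered 214, 218 and 418 without Flk1+Pdgfra+ 1, 2 and 3, and 286, 203 and 1306 without Flk1+ 1, 2 and 3. Falls numbered 503, 517 and 706 without the same Flk1+Pdgfra+ arrays, and 613, 461 and 1003 without the Flk1+ arrays. In all 6 of these fits 163 genes rose (1.1%) and 444 fell (2.99%), together 607 or 4.08%. A gene called in all 6 is described below as kept in every fit that left out 1 array, and of the 153 called genes that are named by rule 87 were kept so. Of the 66 others, 25 kept their call only without Flk1+ 3 and 8 only without Flk1+ 3 or Flk1+Pdgfra+ 3.

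The largest rises outside the streak, endothelial and blood lists, in genes whose groups did not overlap, were led after Pdgfra itself by Frzb, a secreted Wnt antagonist, and Tdgf1, a co-receptor of Nodal. Frzb was at 10.89, 10.90 and 12.44 on Flk1+Pdgfra+ 1, 2 and 3, against 5.77, 5.95 and 9.46 on Flk1+ 1, 2 and 3. Tdgf1 was at 12.88, 12.86 and 13.46 on Flk1+Pdgfra+ 1, 2 and 3, against 6.97, 8.06 and 11.49 on Flk1+ 1, 2 and 3. Both were high on all Flk1+Pdgfra+ arrays, and Flk1+ 3 lay between that group and the other Flk1+ arrays. Their differences were 4.35 ± 0.94 (SE) and 4.23 ± 1.09 (SE) (adjusted p = 0.0231 and 0.0448, limma). Foxf1 was at 12.02, 12.16 and 9.58 on Flk1+Pdgfra+ 1, 2 and 3, against 8.10, 8.28 and 6.54 on Flk1+ 1, 2 and 3, and this forkhead factor of lateral and extraembryonic mesoderm was 12.3-fold higher (adjusted p = 0.0211, limma) while lying lower on the third array of both groups. Otx2 was at 10.88, 10.39 and 12.13 on Flk1+Pdgfra+ 1, 2 and 3, against 6.81, 6.82 and 9.87 on Flk1+ 1, 2 and 3, and this homeobox factor of the anterior epiblast and brain was 9.87-fold higher (adjusted p = 0.0371, limma). The third array was the highest of its group for Otx2 in both groups. Frzb, Tdgf1 and Otx2 kept their call only without Flk1+ 3, with adjusted p of up to 0.0942, 0.158 and 0.137 in the other fits, and Foxf1 only without Flk1+ 3 (0.0375) or Flk1+Pdgfra+ 3 (0.0073). Tdgf1 did not pass with the replicate number as a block (adjusted p = 0.0616).

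Other rises of this kind included 5 genes whose calls depended less on single arrays. Wnt5a was at 11.45, 11.38 and 11.02 on Flk1+Pdgfra+ 1, 2 and 3, against 7.71, 8.08 and 9.62 on Flk1+ 1, 2 and 3, and this Wnt ligand was 7.03-fold higher (adjusted p = 0.00893, limma). Cxcr4 was at 10.72, 10.76 and 10.82 on Flk1+Pdgfra+ 1, 2 and 3, against 7.86, 7.90 and 8.47 on Flk1+ 1, 2 and 3, and the groups of this receptor for the chemokine Cxcl12 lay far apart (6.45-fold, adjusted p = 0.000900, limma). Gna14 was at 9.16, 9.12 and 9.84 on Flk1+Pdgfra+ 1, 2 and 3, against 6.34, 6.48 and 7.10 on Flk1+ 1, 2 and 3, so that this alpha subunit of the Gq class of G proteins was 6.65-fold higher (adjusted p = 0.00112, limma). All arrays of a group agreed closely for Cxcr4, and for Gna14 the third array was the highest of each group. Lmo1 was at 10.18, 9.79 and 9.66 on Flk1+Pdgfra+ 1, 2 and 3, against 7.4002, 7.54 and 7.43 on Flk1+ 1, 2 and 3, a 5.34-fold rise of a LIM-only transcriptional cofactor (adjusted p = 0.00163, limma). Htr1d was at 8.70, 8.54 and 7.61 on Flk1+Pdgfra+ 1, 2 and 3, against 5.83, 5.91 and 5.98 on Flk1+ 1, 2 and 3, a 5.19-fold rise of a serotonin receptor (adjusted p = 0.00204, limma). These 5 genes were kept in every fit that left out 1 array, Wnt5a with an adjusted p of up to 0.0441 (limma). Not all were even across the arrays. For Wnt5a, Flk1+ 3 lay 1.73 above the mean of Flk1+ 1 and 2, toward the other group. For Htr1d, Flk1+Pdgfra+ 3 lay 1.02 below the mean of Flk1+Pdgfra+ 1 and 2. The remaining members of the 15 largest rises had folds of 5.49 to 6.78: the fatty acid binding protein Fabp7, the adhesion molecule L1cam, the homeobox factor Msx1, the collapsin response mediator Dpysl5 and the Notch ligand Dll3. Of them Fabp7, L1cam and Msx1 kept their call only without Flk1+ 3, Dpysl5 only without Flk1+ 3 or Flk1+Pdgfra+ 2, and Dll3 lost it without Flk1+ 1 (0.0745) or Flk1+ 2 (0.0888); Msx1 missed with the replicate block (adjusted p = 0.0530).

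The largest falls outside those lists were led by Samsn1, Ctse and Gimap4. Samsn1 was at 7.03, 7.60 and 4.91 on Flk1+Pdgfra+ 1, 2 and 3, against 11.01, 11.05 and 10.46 on Flk1+ 1, 2 and 3, a 20.1-fold fall of a signalling adaptor of blood cells (adjusted p = 0.00572, limma). Ctse was at 8.14, 8.37 and 6.41 on Flk1+Pdgfra+ 1, 2 and 3, against 11.92, 11.93 and 11.83 on Flk1+ 1, 2 and 3, a 19.1-fold fall of the aspartic protease cathepsin E (adjusted p = 0.00249, limma). Gimap4 was at 6.27, 6.46 and 4.62 on Flk1+Pdgfra+ 1, 2 and 3, against 9.98, 10.49 and 9.48 on Flk1+ 1, 2 and 3, a 18.3-fold fall of a GTPase of an immune family (adjusted p = 0.00228, limma). The choice of the 15 largest falls required groups that do not overlap, so their separation is no result. In each of these genes Flk1+Pdgfra+ 3 lay below the others of its group. Hapln1 was at 7.68, 7.74 and 5.20 on Flk1+Pdgfra+ 1, 2 and 3, against 11.09, 11.09 and 10.74 on Flk1+ 1, 2 and 3, a 17.1-fold fall of a protein that links hyaluronan to proteoglycans (adjusted p = 0.0109, limma). Nrip3 was at 6.63, 6.97 and 6.11 on Flk1+Pdgfra+ 1, 2 and 3, against 10.71, 10.17 and 9.68 on Flk1+ 1, 2 and 3, a 12.3-fold fall (adjusted p = 0.000900, limma). Vav3 was at 7.37, 7.44 and 6.74 on Flk1+Pdgfra+ 1, 2 and 3, against 10.68, 10.74 and 10.21 on Flk1+ 1, 2 and 3, a 10.3-fold fall (adjusted p = 0.00186, limma). The 15 also held the transcription factor Tfec (12.7-fold), the integrin ligand Edil3 (11.5-fold), the GTPase-activating protein Arap3 (10.6-fold), the actin regulator Abi3 (10.5-fold), the sodium pump regulator Fxyd5 (10.2-fold), Myct1 (14.9-fold) and Oit3 (11.3-fold), of which Oit3 kept its call only without Flk1+ 3 (0.0054) or Flk1+Pdgfra+ 2 (0.0494). Adgrl4 was at 8.47, 8.40 and 4.61 on Flk1+Pdgfra+ 1, 2 and 3, against 11.75, 11.92 and 10.02 on Flk1+ 1, 2 and 3, and this adhesion receptor of endothelium kept its call only without Flk1+ 3 (0.0278) or Flk1+Pdgfra+ 3 (0.0345). Dppa4 was at 5.33, 5.09 and 4.91 on Flk1+Pdgfra+ 1, 2 and 3, against 7.98, 8.70 and 8.86 on Flk1+ 1, 2 and 3, and this gene of early embryonic cells was the 1 stem cell marker that fell; its Flk1+Pdgfra+ mean of 5.11 was under the lower quartile of every array, so its fold cannot be read exactly, and it missed without Flk1+ 2 (0.0567) or Flk1+Pdgfra+ 2 (0.0503). The other 12 falls were kept in every fit that left out 1 array.

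**Figure D2:**
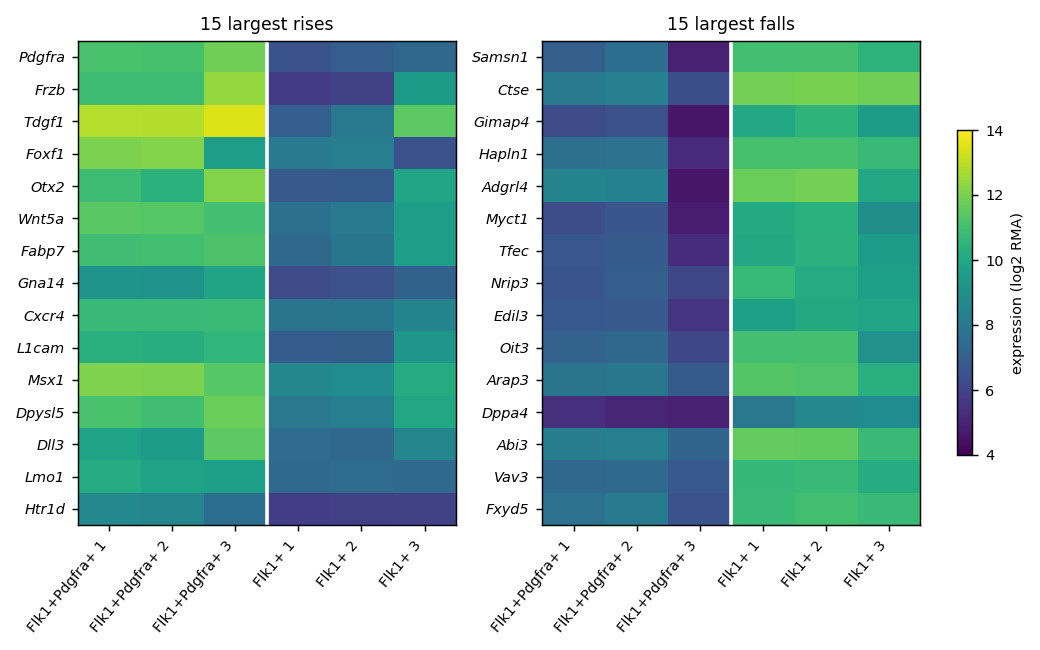
Log2 expression (colour) on each progenitor array of the 15 largest rises (left) and 15 largest falls (right) outside the streak, endothelial and blood lists, with the Flk1+Pdgfra+ arrays left of the white line and the Flk1+ arrays right of it. Flk1+ 3 is the brightest Flk1+ column for Frzb (9.46), Tdgf1 (11.49) and Otx2 (9.87), and Flk1+Pdgfra+ 3 is the darkest column for all 15 falls, for example Samsn1 (4.91).

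Genes with the smallest p-values, apart from those already given, are described next. Itm2a was at 8.33, 8.52 and 8.15 on Flk1+Pdgfra+ 1, 2 and 3, against 11.34, 11.35 and 11.08 on Flk1+ 1, 2 and 3, a 7.58-fold fall of a membrane protein (adjusted p = 0.000178, limma). Ppp1r13b was at 8.55, 8.88 and 8.70 on Flk1+Pdgfra+ 1, 2 and 3, against 11.10, 11.18 and 11.21 on Flk1+ 1, 2 and 3, a 5.48-fold fall of a protein that binds p53 (adjusted p = 0.000220, limma). Arhgap31 was at 7.31, 7.57 and 6.93 on Flk1+Pdgfra+ 1, 2 and 3, against 10.46, 10.67 and 10.22 on Flk1+ 1, 2 and 3, a 9.08-fold fall of a GTPase-activating protein for Cdc42 and Rac1 (adjusted p = 0.000244, limma). In all 3 the groups were separated by a gap larger than the range within either group. The phosphatase Dusp3 (3.98-fold), the docking protein Gab1 of growth factor receptors (2.43-fold), the glutamate receptor Grm6 (3.37-fold), the membrane protein Vat1 (3.17-fold) and the selenium carrier Selenop (4.19-fold) also fell with adjusted p of 0.000272 to 0.000440. Among rises, Smad1 was at 10.81, 10.80 and 10.85 on Flk1+Pdgfra+ 1, 2 and 3, against 9.64, 9.80 and 9.79 on Flk1+ 1, 2 and 3, and this transducer of BMP signals was 2.11-fold higher (adjusted p = 0.000900, limma). The tumour necrosis factor receptor family member Relt (2.47-fold), the lipid raft protein Rftn1 (2.77-fold), the keratin-related Krt222 (3.304-fold) and the vesicle fusion protein Cplx1 (2.24-fold) rose with adjusted p of 0.000560 to 0.000991. Each of these 13 genes was kept in every fit that left out 1 array.

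Gene groups were read next, each against the 4.64% of all genes that rose and the 5.87% that fell. No set was tested as such, so a group's count describes its members only.

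Of 53 measured Wnt pathway genes 8 rose and 2 fell, with a median difference of 0.26. The rises lay among ligands (Wnt5a, Wnt2, Wnt3 and Wnt5b), the receptor Fzd7 (2.82-fold), the target Sp5 (4.54-fold), the feedback inhibitor Nkd1 and the antagonist Frzb. Fzd7 was at 12.44, 12.40 and 12.34 on Flk1+Pdgfra+ 1, 2 and 3, against 10.67, 10.80 and 11.22 on Flk1+ 1, 2 and 3, with no overlap (adjusted p = 0.00252, limma). The falls were both receptors: Lgr5 was at 9.37, 9.62 and 8.64 on Flk1+Pdgfra+ 1, 2 and 3, against 11.24, 11.29 and 11.66 on Flk1+ 1, 2 and 3, and this receptor for R-spondins was 4.54-fold lower (adjusted p = 0.00326, limma), while Fzd10 was 2.93-fold lower. Wnt5a, Wnt5b, Wnt2, Fzd7, Lgr5 and Fzd10 were kept in every fit that left out 1 array, while Wnt3 (up to 0.0861), Nkd1 (up to 0.103) and Sp5 (up to 0.104) were not. The target Axin2 was at 10.50, 10.52 and 10.71 in Flk1+Pdgfra+ and at 8.36, 8.61 and 10.26 in Flk1+ and did not pass (1.503 ± 0.45 (SE), adjusted p = 0.0745, limma).

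The 37 measured BMP and TGF-beta genes were split, with 5 rises and 5 falls (median 0.20). Those that rose were Smad1, the receptor Bmpr1b (1.78-fold), the target Msx1, and Bmper (2.70-fold) and Nog, which bind BMP ligands. Those that fell were all receptors or co-receptors: Eng (3.85-fold), Acvrl1 (3.60-fold), Tgfbr3 (2.99-fold), Tgfbr2 (2.60-fold) and Bmpr2 (1.40-fold), of which Eng and Acvrl1 serve TGF-beta family signals in endothelium. Eng was at 9.57, 9.72 and 10.02 on Flk1+Pdgfra+ 1, 2 and 3, against 11.68, 11.89 and 11.57 on Flk1+ 1, 2 and 3, with no overlap (adjusted p = 0.00103, limma). Tgfbr2 was at 7.72, 7.69 and 7.69 on Flk1+Pdgfra+ 1, 2 and 3, against 9.18, 9.34 and 8.72 on Flk1+ 1, 2 and 3, again with no overlap (adjusted p = 0.0139, limma). Smad1, Nog, Eng and Tgfbr3 were kept in every fit that left out 1 array; Nog was at 5.24 on average on the Flk1+ arrays, under the lower quartile of every array, and its fold cannot be read exactly. The calls of Acvrl1, Tgfbr2, Bmpr2, Bmpr1b and Bmper did not hold in all of those fits, with adjusted p of up to 0.0612, 0.0638, 0.0713, 0.116 and 0.143. The ligand Bmp4 was at 12.56, 12.38 and 11.05 in Flk1+Pdgfra+ and at 10.37, 10.63 and 11.06 in Flk1+, so the third arrays were level, and it did not pass (1.31 ± 0.37 (SE), adjusted p = 0.0589, limma, and 0.000491 with replicates 1 and 2 only).

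The remaining morphogen pathways were read in the same way. In the Nodal and activin list of 17 genes Tdgf1 rose and the protease Furin fell by 0.66, and the ligand Nodal itself was at 9.15, 9.23 and 10.27 in Flk1+Pdgfra+ and at 9.03, 9.20 and 10.23 in Flk1+, higher on the third array of both groups. Of 30 FGF pathway genes the ligand Fgf8 (2.23-fold) and the receptor-like Fgfrl1 (2.21-fold) rose and 0 fell, and 26 of the 30 differences were above 0 (median 0.46). Of 13 Hedgehog genes the receptor-binding Gas1 (2.88-fold) and the effector Gli1 (1.49-fold) rose and 0 fell (median 0.50). Of 14 retinoic acid genes the binding protein Crabp1 rose (3.86-fold) and 0 fell (median 0.27). In the Notch list of 24 genes the ligands Dll3 (5.49-fold) and Dlk1 (2.02-fold) and the target Hes1 (1.70-fold) rose, and the endothelial ligand Dll4 (5.30-fold) and the glycosyltransferase Mfng (3.78-fold) fell (median 0.08). None of these was kept in every fit that left out 1 array: Fgf8, Gas1, Crabp1, Hes1, Dll4 and Mfng passed only without Flk1+ 3, Fgfrl1 only without Flk1+ 3 or Flk1+Pdgfra+ 3, Furin and Gli1 missed without Flk1+ 2 (0.0735 and 0.0660) among others, and Dlk1 only without Flk1+Pdgfra+ 3 (0.0066) and not with the replicate block (0.0752).

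In the group of VEGF, angiopoietin, PDGF and Kit signalling, Pdgfra alone rose and 7 of 26 genes fell (median -0.08). Pdgfb was at 8.20, 8.38 and 7.53 on Flk1+Pdgfra+ 1, 2 and 3, against 10.26, 10.76 and 10.15 on Flk1+ 1, 2 and 3, so that this ligand of platelet-derived growth factor receptors was 5.11-fold lower where its receptor Pdgfra was higher (adjusted p = 0.00182, limma). The other ligand Pdgfa was at 10.52, 10.42 and 10.32 in Flk1+Pdgfra+ and at 8.22, 8.61 and 10.36 in Flk1+ and did not pass (1.36 ± 0.49 (SE), adjusted p = 0.126, limma). The receptor Pdgfrb was at 10.79, 10.68 and 10.09 on Flk1+Pdgfra+ 1, 2 and 3, against 7.95, 8.13 and 9.61 on Flk1+ 1, 2 and 3 and did not pass either (1.95 ± 0.60 (SE), adjusted p = 0.0775, limma). Receptors of the vessel wall fell: Tek, Tie1 (11.5-fold), the phosphatase Ptprb that acts on Tek (10.1-fold) and the VEGF receptor Flt1 (4.78-fold). Tek, Ptprb, Pdgfb and the adaptor Sh2d3c (2.51-fold) were kept in every fit that left out 1 array, Tie1 missed without Flk1+ 2 (0.0533), and Flt1 missed with the replicate block (0.0616) as well as in 5 of those fits (up to 0.151).

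In the list of chemokine, apelin, sphingosine 1-phosphate and vascular peptide receptors, which also holds ligands and enzymes, 2 of 29 measured genes rose and 11 fell (median -0.15). Ramp2 was at 8.52, 8.64 and 7.55 on Flk1+Pdgfra+ 1, 2 and 3, against 11.82, 11.81 and 10.68 on Flk1+ 1, 2 and 3, a 9.18-fold fall (adjusted p = 0.00545, limma). Calcrl was at 8.37, 8.34 and 7.08 on Flk1+Pdgfra+ 1, 2 and 3, against 11.53, 11.48 and 10.23 on Flk1+ 1, 2 and 3, a 8.87-fold fall (adjusted p = 0.00819, limma). Together these proteins form the receptor for adrenomedullin in vessels, and for both every Flk1+ array lay above every Flk1+Pdgfra+ array. S1pr1 was at 9.22, 9.20 and 7.70 on Flk1+Pdgfra+ 1, 2 and 3, against 11.30, 11.47 and 10.90 on Flk1+ 1, 2 and 3, a 5.73-fold fall of a receptor for sphingosine 1-phosphate (adjusted p = 0.00710, limma), and Spns2, which exports that lipid, fell 4.33-fold. Endothelin 1, encoded by Edn1 (3.85-fold), its converting enzyme Ece1 (2.03-fold) and the thrombin receptors F2rl3 (6.07-fold) and F2r (2.97-fold) fell too. All these were kept in every fit that left out 1 array, and they were the only ones of the 11 falls so kept (8 in all). The rises were Cxcr4 and S1pr5 (2.23-fold), the second of which passed only without Flk1+Pdgfra+ 3 (0.0133) and missed with the replicate block (0.0558). The apelin receptor Aplnr was at 11.46, 11.44 and 12.77 on Flk1+Pdgfra+ 1, 2 and 3, against 13.01, 13.12 and 12.76 on Flk1+ 1, 2 and 3 and did not pass (-1.07 ± 0.37 (SE), adjusted p = 0.107, limma).

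Guidance molecules moved both ways. Of 53 semaphorin, ephrin, slit and netrin genes 10 rose and 4 fell (median 0.41), and of 19 ephrins and Eph receptors alone 5 rose and 1 fell (median 0.58). Efna2 was at 10.77, 10.82 and 10.83 on Flk1+Pdgfra+ 1, 2 and 3, against 9.23, 9.35 and 9.88 on Flk1+ 1, 2 and 3, a 2.50-fold rise of an ephrin (adjusted p = 0.00358, limma). Plxna4 was at 10.41, 10.36 and 10.18 on Flk1+Pdgfra+ 1, 2 and 3, against 8.59, 8.98 and 9.30 on Flk1+ 1, 2 and 3, a 2.57-fold rise of a semaphorin receptor (adjusted p = 0.00947, limma). Plxnc1 was at 6.80, 6.88 and 6.40 on Flk1+Pdgfra+ 1, 2 and 3, against 10.58, 10.48 and 8.71 on Flk1+ 1, 2 and 3, a 9.38-fold fall of another plexin (adjusted p = 0.00528, limma). Plxnd1, the plexin of endothelium (5.23-fold), and the endothelial Robo4 (3.73-fold) fell, whereas Robo1 (2.82-fold), Sema7a (2.96-fold) and the ephrin Efnb1 (1.80-fold) rose. Robo1 and Sema7a passed only without Flk1+ 3, while Efna2, Efnb1, Plxna4, Plxnc1, Plxnd1 and Robo4 were kept in every such fit. The calls of Ephb3, Efnb3, Sema4a, Sema5b and Ephb4 did not hold once the replicate number was a block (adjusted p of 0.0528 to 0.0834).

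Adhesion genes were called in both directions. Of 27 cadherins and protocadherins 4 rose and 4 fell (median 0.29). Cdh4 was at 10.46, 10.50 and 10.003 on Flk1+Pdgfra+ 1, 2 and 3, against 7.60, 7.88 and 8.90 on Flk1+ 1, 2 and 3, a 4.57-fold rise (adjusted p = 0.00429, limma). Cdh11, a cadherin of mesenchyme, rose 3.84-fold, Cdh8 3.91-fold and the protocadherin Pcdh7 1.79-fold. The endothelial Cdh5 (11.4-fold) and Pcdh12 (2.97-fold) fell, as did Cdh22 (2.21-fold) and Pcdh1 (2.58-fold). Cdh4, Pcdh7 and Cdh22 were kept in every fit that left out 1 array, Cdh11 and Pcdh1 passed only without Flk1+ 3 (0.0076 and 0.0023), Cdh8 only without Flk1+Pdgfra+ 3 (0.0002), Cdh5 missed without Flk1+ 1 (0.0611) or Flk1+ 2 (0.0700) and Pcdh12 without Flk1+ 2 (0.0576). Of 29 integrins and laminins 0 rose and 4 fell (median -0.19): the platelet integrin chains Itga2b (6.17-fold) and Itgb3 (3.90-fold), Fermt3, which activates integrins in blood cells (5.41-fold), and the laminin chain Lamc1 (1.67-fold). Of these only Lamc1 lost its call in some fits that left out 1 array (up to 0.0595). The Flk1+ mean of Cdh8, 5.67, lay close to the lower quartiles, and its fold cannot be read exactly either.

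Matrix genes that changed were mostly lower. Of 30 collagens and collagen enzymes 0 rose and 5 fell although the median was 0.14, and the falls were the basement membrane chains Col18a1 (5.496-fold), Col4a2 (2.03-fold) and Col4a1 (1.74-fold) and the hydroxylases P4ha1 (1.97-fold) and Plod1 (1.502-fold). Col18a1 was at 8.69, 8.77 and 8.45 on Flk1+Pdgfra+ 1, 2 and 3, against 11.39, 11.31 and 10.58 on Flk1+ 1, 2 and 3, with no overlap (adjusted p = 0.00197, limma). Of 48 genes of hyaluronan, proteoglycans and matricellular proteins 2 rose and 7 fell (median 0.01). Nid1 was at 10.12, 10.04 and 9.52 on Flk1+Pdgfra+ 1, 2 and 3, against 12.39, 12.45 and 11.95 on Flk1+ 1, 2 and 3, a 5.17-fold fall of another basement membrane protein (adjusted p = 0.00488, limma). Spon1 (5.47-fold), the microfibril protein Fbn2 (3.06-fold) and Sparc (1.65-fold) also fell. The heparan sulphate proteoglycan Gpc3 (2.39-fold) and Fbln1 (1.87-fold) rose. Of 37 extracellular proteases and inhibitors Adamts20 rose (1.37-fold) and 8 fell (median -0.27), among them Ctse, the disintegrin proteases Adam15 (5.13-fold) and Adam10 (1.86-fold) and the urokinase receptor Plaur (4.56-fold). Of the genes named in this paragraph Col4a1 passed only in 1 and Plod1 in 3 of the 6 fits that left out 1 array (up to 0.132 and 0.104), and the others named were kept in every one. Of all falls, 6 of the 7 in the hyaluronan list and 4 of the 8 among the proteases were so kept.

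Transcription factors of vessels were called in 1 direction. Of 44 ETS, SoxF, KLF and related factors 0 rose and 20 fell (median -0.77), 15 of them in every fit that left out 1 array. Erg was at 7.78, 7.99 and 6.64 on Flk1+Pdgfra+ 1, 2 and 3, against 11.28, 11.28 and 10.31 on Flk1+ 1, 2 and 3, a 11.2-fold fall of an ETS factor (adjusted p = 0.00235, limma). Bcl6b was at 7.72, 7.78 and 7.08 on Flk1+Pdgfra+ 1, 2 and 3, against 11.05, 11.17 and 10.30 on Flk1+ 1, 2 and 3, a 9.94-fold fall of a repressor (adjusted p = 0.00204, limma). Elk3 was at 9.38, 9.58 and 9.14 on Flk1+Pdgfra+ 1, 2 and 3, against 11.58, 11.69 and 11.45 on Flk1+ 1, 2 and 3, a 4.63-fold fall of another ETS factor (adjusted p = 0.00221, limma). The factors Sox7 (12.9-fold), Sox18 (8.31-fold), Hhex (6.05-fold), Ets1 (3.36-fold), Ets2 (3.14-fold), Mef2c (3.09-fold), Foxo1 (2.16-fold) and Mef2a (2.08-fold) fell too, and of these Sox7 missed without Flk1+ 2 (0.0558). Not every vascular factor did so. Etv2, an ETS factor at the origin of endothelium and blood, was at 11.80, 12.28 and 11.37 in Flk1+Pdgfra+ and at 11.06, 11.52 and 12.04 in Flk1+, a difference of 0.27 ± 0.42 (SE) that did not pass (adjusted p = 0.730, limma). Runx1 was at 10.71, 10.65 and 9.67 on Flk1+Pdgfra+ 1, 2 and 3, against 11.17, 10.98 and 10.57 on Flk1+ 1, 2 and 3 and did not pass (adjusted p = 0.384, limma).

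Factors of mesoderm were called only as rises. In the list of the primitive streak and of nascent mesoderm, 11 of 18 measured members rose and 0 fell (median 1.10), and 6 were kept in every fit that left out 1 array: Mesp1, Snai1, Evx1, Eomes, Mixl1 and Gsc. Eomes was at 13.005, 13.0003 and 12.96 on Flk1+Pdgfra+ 1, 2 and 3, against 10.69, 11.13 and 11.83 on Flk1+ 1, 2 and 3, a 3.41-fold rise of a T-box factor (adjusted p = 0.00530, limma). Mixl1 was at 13.60, 13.60 and 13.69 on Flk1+Pdgfra+ 1, 2 and 3, against 11.34, 11.72 and 12.66 on Flk1+ 1, 2 and 3, a 3.31-fold rise of a homeobox factor (adjusted p = 0.00827, limma). Gsc was at 9.96, 9.94 and 10.28 on Flk1+Pdgfra+ 1, 2 and 3, against 7.86, 8.20 and 9.07 on Flk1+ 1, 2 and 3, a 3.22-fold rise of another (adjusted p = 0.00760, limma). On the third arrays the list stood higher in both groups, by a median of 0.58 in Flk1+Pdgfra+ and 0.90 in Flk1+. Of 26 factors of paraxial, lateral and extraembryonic mesoderm 4 rose and 0 fell (median 0.47): Foxf1, Msx1, Tbx6 (4.60-fold) and Isl1. Tbx6 missed without Flk1+ 1 (0.0611) or Flk1+ 2 (0.0678). Isl1 was at 7.94, 7.95 and 8.94 on Flk1+Pdgfra+ 1, 2 and 3, against 6.07, 6.14 and 6.58 on Flk1+ 1, 2 and 3, a 4.04-fold rise of a LIM homeobox factor of the second heart field (adjusted p = 0.00975, limma), kept in every fit that left out 1 array. Hand1 was at 11.38, 11.37 and 8.61 on Flk1+Pdgfra+ 1, 2 and 3, against 8.25, 8.59 and 7.35 on Flk1+ 1, 2 and 3 and did not pass (2.39 ± 0.70 (SE), adjusted p = 0.0696, limma), nor did Tbx20, at 11.84, 11.77 and 9.88 on Flk1+Pdgfra+ 1, 2 and 3, against 9.60, 9.88 and 8.92 on Flk1+ 1, 2 and 3 (adjusted p = 0.0699, limma). Both genes were lowest on the third array of each group. In the mesenchymal transition list Snai1 (7.01-fold) and Cdh11 rose while Zeb1 (2.23-fold), Zeb2 (1.77-fold) and Vim fell, Vim by only 0.30, so members that act in the same transition moved in opposite directions. Vim lost its call in all 6 fits that left out 1 array and with the replicate block (0.0691), and Zeb1 and Zeb2 kept it in every one.

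Genes of blood cell signalling were called only as falls. Of 48 leukocyte adaptors and kinases 0 rose and 15 fell (median -0.15), and of 30 platelet and coagulation genes 0 rose and 11 fell (median -0.65). Laptm5 was at 7.38, 7.59 and 6.97 on Flk1+Pdgfra+ 1, 2 and 3, against 10.78, 10.71 and 9.48 on Flk1+ 1, 2 and 3, a 8.05-fold fall of a lysosomal protein of blood cells (adjusted p = 0.00579, limma). Alox5ap was at 6.65, 6.57 and 6.30 on Flk1+Pdgfra+ 1, 2 and 3, against 9.16, 9.10 and 8.77 on Flk1+ 1, 2 and 3, a 5.66-fold fall of the protein that activates 5-lipoxygenase (adjusted p = 0.00112, limma). Arhgdib was at 8.998, 8.98 and 8.80 on Flk1+Pdgfra+ 1, 2 and 3, against 11.33, 11.49 and 11.35 on Flk1+ 1, 2 and 3, a 5.51-fold fall (adjusted p = 0.000900, limma). In all 3 the Flk1+ arrays lay above every Flk1+Pdgfra+ array. The platelet genes that fell included Itga2b, Itgb3, Procr (3.41-fold), Vwf (2.41-fold) and Rab27b, whose Flk1+Pdgfra+ mean of 5.11 was under the lower quartile of every array. Of 26 genes of the red cell membrane, haem and iron only the iron exporter Slc40a1 (4.099-fold) and the ferritin chain Fth1 (1.31-fold) fell, and Fth1 missed with the replicate block (0.0525). Vwf and Slc40a1 did not hold in every fit that left out 1 array (up to 0.0542 and 0.0785). Of all falls, 7 of the 15 leukocyte genes and 7 of the 11 platelet genes were kept in every such fit. All 3 lists and those of endothelium (0 rises, 22 falls of 26) and blood (0 rises, 13 falls of 25) share members, so their counts are not independent.

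Regulators of small GTPases gave a similar count. Of 35 chosen for vessel cells 2 rose and 17 fell (median -0.71), 12 of the falls in every fit that left out 1 array. Rhoj was at 9.99, 10.40 and 9.30 on Flk1+Pdgfra+ 1, 2 and 3, against 12.77, 12.75 and 12.53 on Flk1+ 1, 2 and 3, a 6.92-fold fall (adjusted p = 0.00306, limma). Grap was at 7.36, 7.47 and 6.49 on Flk1+Pdgfra+ 1, 2 and 3, against 10.42, 10.50 and 9.61 on Flk1+ 1, 2 and 3, a 8.40-fold fall of an adaptor of Ras signalling (adjusted p = 0.00267, limma). Arhgef15 was at 7.56, 7.86 and 7.29 on Flk1+Pdgfra+ 1, 2 and 3, against 10.08, 10.37 and 9.25 on Flk1+ 1, 2 and 3, a 5.03-fold fall of an exchange factor (adjusted p = 0.00299, limma). The 3 genes did not overlap between groups. Tiam2, an exchange factor for Rac1, rose 4.86-fold, with a call kept only without Flk1+ 3 (0.0007), and Rasa4 rose 1.90-fold but not with the replicate block (0.0677). By symbol alone, without choosing for vessels, 2 of 47 Arhgap and Arhgef genes rose and 11 fell (median -0.05), and 1 of 16 Ras exchange and GTPase-activating genes rose and 6 fell (median -0.30).

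Lists of cell growth and metabolism were read as well. By limma 0 of 26 genes of DNA replication and mitosis passed (median 0.05, 1 higher and 0 lower at an unadjusted p under 0.05). Likewise 0 of 24 genes of ribosome biogenesis passed (median 0.11, 4 higher and 0 lower unadjusted), and in both lists 0 passed with the replicate block or with replicates 1 and 2 only. Of 24 oxidative phosphorylation genes Sdhc rose (1.32-fold) and 0 fell (median 0.17). Among 29 regulators of the G1 phase 3 rose and 1 fell (median 0.01). Ccne1 was at 11.53, 11.49 and 11.38 on Flk1+Pdgfra+ 1, 2 and 3, against 10.58, 10.66 and 10.72 on Flk1+ 1, 2 and 3, and this cyclin was 1.76-fold higher (adjusted p = 0.00125, limma). Cdkn2c was at 6.15, 6.01 and 5.997 on Flk1+Pdgfra+ 1, 2 and 3, against 6.97, 7.14 and 6.74 on Flk1+ 1, 2 and 3, and this inhibitor of cyclin-dependent kinases was 1.86-fold lower (adjusted p = 0.00539, limma). Both were kept in every fit that left out 1 array, and neither overlapped. The other rises of this list were not kept in every such fit. Of 35 genes of glycolysis and hypoxia 1 rose and 5 fell (median -0.10), among them Pdk1, which restrains pyruvate oxidation (3.66-fold), and the kinases Pfkp (2.76-fold) and Hk1 (2.29-fold). Of 32 interferon and antigen presentation genes 0 rose and 6 fell, led by the signalling members Irf2 (2.53-fold), Stat3 (2.13-fold) and Ifngr2 (2.05-fold). These 3 were the only ones of the 6 kept in every such fit. Of 18 cholesterol synthesis genes Cyp51 rose (1.36-fold) and 0 fell, and of 28 genes of serine synthesis and the factor Atf4 the lipoprotein receptor Vldlr rose (2.88-fold, adjusted p = 0.00267, limma) and 0 fell. Pdk1, Pfkp, Hk1 and Vldlr were kept in every fit that left out 1 array, Sdhc missed without Flk1+ 2 (0.0673) among others, and Cyp51 passed only without Flk1+ 2 or Flk1+ 3.

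Immediate early, imprinted and channel genes completed the survey. Of 29 immediate early genes Ier5 rose by 0.36 and 5 fell (median -0.07), and Dusp2 was at 8.11, 8.34 and 8.11 on Flk1+Pdgfra+ 1, 2 and 3, against 10.43, 10.27 and 9.69 on Flk1+ 1, 2 and 3, a 3.85-fold fall of a phosphatase of mitogen-activated kinases (adjusted p = 0.00204, limma) and the one of the 5 kept in every fit that left out 1 array. Of 26 imprinted genes Phlda2 (3.75-fold), Dlk1, Magel2 (2.01-fold) and Peg3 (1.68-fold) rose and Ppp1r9a (2.52-fold) and the growth factor Igf2 (2.34-fold) fell (median 0.08). Igf2 missed only without Flk1+ 2 (0.0502), and Ppp1r9a was kept throughout. Of 41 potassium and calcium channel genes Cacna2d2 (3.88-fold) and Kcnc1 (2.27-fold) rose, and Trpc6 (4.77-fold) and Orai1 (1.98-fold) fell. Trpc6 was at 6.30, 6.36 and 5.71 on Flk1+Pdgfra+ 1, 2 and 3, against 8.62, 8.68 and 7.85 on Flk1+ 1, 2 and 3, with no overlap (adjusted p = 0.00279, limma). Trpc6 and Orai1 were kept in every fit that left out 1 array, Kcnc1 missed without Flk1+ 2 (0.0563), Cacna2d2 passed only without Flk1+ 3 or Flk1+Pdgfra+ 3, Phlda2 and Ier5 only without Flk1+ 3, and Magel2 and Peg3 did not hold throughout (up to 0.0619 and 0.0989).

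Families were also defined by their symbols alone. Of 18 Tspan tetraspanins, membrane organisers, 0 rose and 9 fell (median -0.58), 4 of them in every fit that left out 1 array. Tspan18 was at 9.48, 9.54 and 8.29 on Flk1+Pdgfra+ 1, 2 and 3, against 12.74, 12.81 and 11.79 on Flk1+ 1, 2 and 3, a 10.1-fold fall (adjusted p = 0.00219, limma). Tspan9 was at 9.15, 9.21 and 9.04 on Flk1+Pdgfra+ 1, 2 and 3, against 10.89, 10.95 and 10.51 on Flk1+ 1, 2 and 3, a 3.14-fold fall (adjusted p = 0.000592, limma). Of 8 Gimap genes 0 rose and 5 fell (median -1.57), and of 12 annexins 0 rose and 3 fell, led by Anxa3 (5.27-fold). Of 212 Zfp zinc finger genes 15 rose and 12 fell, of 316 solute carriers 8 rose and 20 fell, and of 32 Hox genes 1 rose and 0 fell. Of 68 mitochondrial ribosomal protein genes 6 rose and 0 fell, by 0.29 to 0.52, and none was kept in every fit that left out 1 array. Of 37 translation factors named Eif 0 were called by limma, with 3 higher and 1 lower at an unadjusted p under 0.05. Among 718 olfactory receptors 5 rose and 0 fell, a called share of 0.696%. Tspan18, Tspan9 and Anxa3 were chosen after their values were seen.

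**Figure D3:**
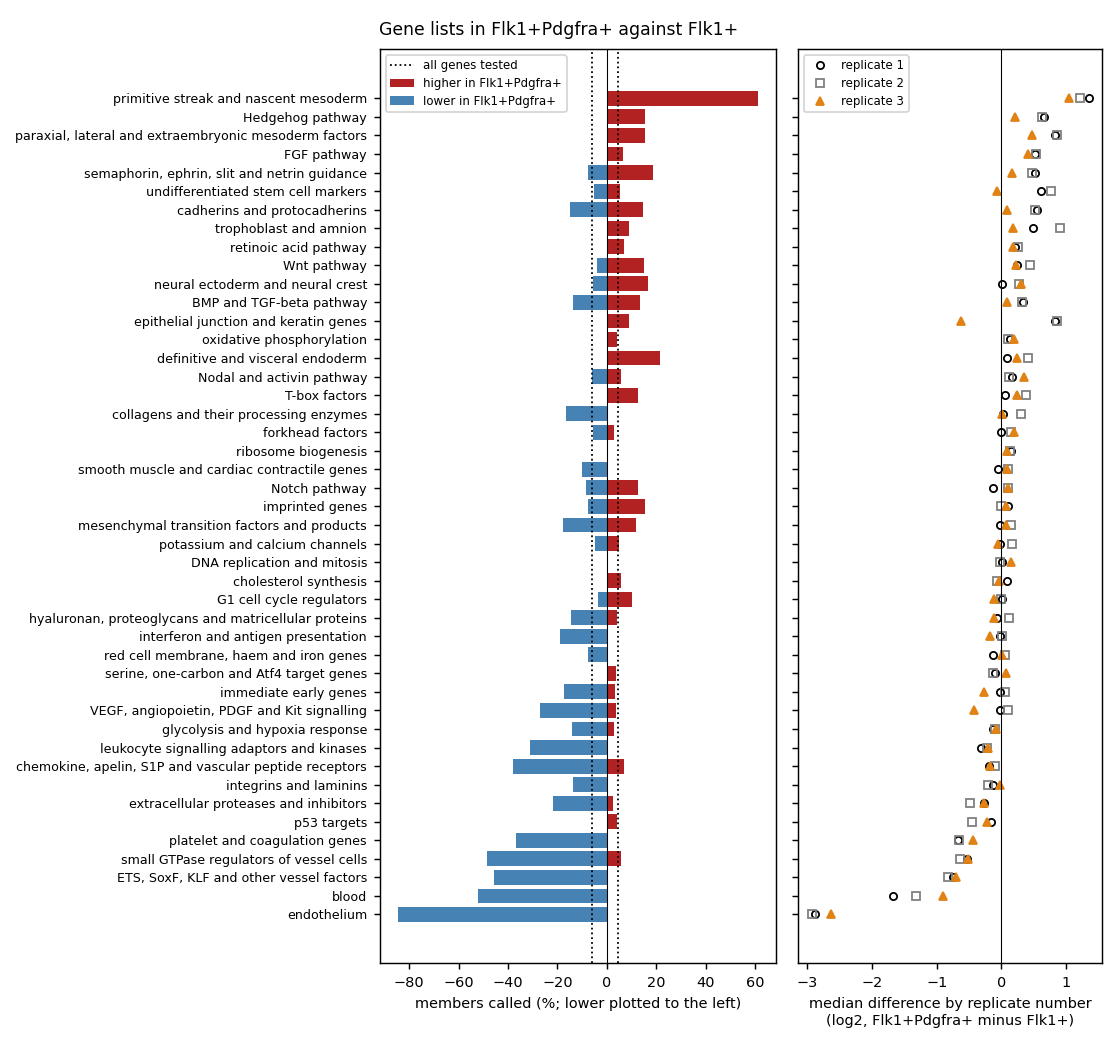
Left, share of measured members of each gene list that rose (red, to the right) or fell (blue, to the left) in Flk1+Pdgfra+ against Flk1+, in percent, with dotted lines at the shares of all genes (4.64 and 5.87); right, the median log2 difference of the list at each replicate number (circles 1, squares 2, orange triangles 3). Endothelium and blood lists reach the largest falls and the primitive streak the largest rise, and for epithelial junction and keratin genes the triangle lies below 0 while replicates 1 and 2 lie above it.

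Markers of other cells that a sort could hold were read beside these results. The mean of 19 stem cell markers was 8.02, 8.08 and 8.33 on the Flk1+Pdgfra+ arrays and 6.87, 7.06 and 8.66 on the Flk1+ arrays, and 1 rose and 1 fell (median 0.33). Flk1+ 3 was thus the highest of all 6, while the other Flk1+ arrays were the lowest. Nanog was at 10.56, 10.56 and 11.33 on Flk1+Pdgfra+ 1, 2 and 3, against 6.21, 6.43 and 10.99 on Flk1+ 1, 2 and 3, and it did not pass (adjusted p = 0.139, limma, and 0.000334 with replicates 1 and 2 only). The mean of 22 epithelial junction and keratin genes was 7.78, 7.88 and 7.80 in Flk1+Pdgfra+ and 6.75, 6.80 and 8.50 in Flk1+, and Lsr (2.41-fold) and Ap1m2 rose, Ap1m2 not with the replicate block (0.0558). With replicates 1 and 2 only, 14 of the 22 passed as higher and 0 as lower, against 1148 higher and 945 lower of all 14860 genes in that fit. The cadherin Cdh1 was at 8.66, 9.004 and 9.27 on Flk1+Pdgfra+ 1, 2 and 3, against 7.16, 7.24 and 11.25 on Flk1+ 1, 2 and 3, and on Flk1+ 3 it exceeded every other array. Of 14 endoderm genes Gata6 (1.84-fold), Gata4 (2.15-fold) and Rbp4 (2.59-fold) rose and 0 fell (median 0.17), with list means of 7.49 to 7.65 in Flk1+Pdgfra+ and at most 7.44 in Flk1+. Of 18 neural genes Otx2, Crabp1 and Tfap2a (1.70-fold) rose and Nes fell (2.13-fold), with means of 7.33 to 7.67 in Flk1+Pdgfra+ and 6.88 to 7.26 in Flk1+. Of 11 trophoblast and amnion genes Isl1 rose, with means of 7.80, 7.87 and 7.63 in Flk1+Pdgfra+ and 7.01, 7.03 and 7.31 in Flk1+, and of 20 contractile genes 0 rose and Mylk (2.57-fold) and Tnnt2 (2.54-fold) fell, with means of 6.97, 7.11 and 7.43 in Flk1+Pdgfra+ and 6.90, 7.03 and 7.48 in Flk1+. On the cTnT+ cardiomyocyte arrays Gata4, Gata6, Rbp4 and Isl1 had means of 11.77, 12.84, 9.21 and 9.68. Isl1 is also counted above among factors of mesoderm, so these rises do not single out endoderm or amnion. Gata6 was kept in every fit that left out 1 array, as was Mylk. Lsr, Crabp1, Otx2 and Tnnt2 passed only without Flk1+ 3, Rbp4 only without Flk1+ 3 or Flk1+Pdgfra+ 3, Gata4 only without Flk1+ 1 or Flk1+ 3, and Nes and Tfap2a missed without Flk1+ 2 (0.0795 and 0.0587) among others. The part of such cells in the differences above was not tested.

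What set the third arrays apart was described without a test. Flk1+Pdgfra+ 3 lay at least 2-fold above the mean of Flk1+Pdgfra+ 1 and 2 for 265 genes and below it for 130. Flk1+ 3 lay at least 2-fold above the mean of Flk1+ 1 and 2 for 728 genes and below it for 178. By comparison, replicates 1 and 2 differed at least 2-fold from each other in only 36 genes in Flk1+Pdgfra+ and 49 in Flk1+. The shift was in part the same in both groups: 168 genes were 2-fold up on both of the third arrays, which is 63.4% of those up on Flk1+Pdgfra+ 3 and 23.1% of those up on Flk1+ 3, 35 were down on both, and 9 went opposite ways. Across all genes the shifts correlated at 0.46, over genes that share the same 6 arrays. Of the 168 genes 6 were called between the groups, and of the 35 genes 17, against 1562 of all 14860 genes (10.5%). Picking genes by a shift inside both groups widens their spread in the test, so these counts are a description only. The 35 genes held 7 members of the endothelium list, in which 22 of 26 measured genes fell.

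Single genes with large shifts on both of the third arrays are given next. Pilra, an immune receptor, was at 6.999, 6.48 and 11.53 on Flk1+Pdgfra+ 1, 2 and 3, against 6.11, 6.34 and 11.57 on Flk1+ 1, 2 and 3. Cd80, a ligand that costimulates T cells, was at 5.95, 5.99 and 10.66 on Flk1+Pdgfra+ 1, 2 and 3, against 5.44, 5.52 and 9.27 on Flk1+ 1, 2 and 3. Hprt, an enzyme of purine salvage often used as a constant gene, was at 10.44, 10.36 and 7.02 on Flk1+Pdgfra+ 1, 2 and 3, against 10.32, 10.49 and 7.73 on Flk1+ 1, 2 and 3. In all 3 the third arrays were nearer to each other than to the other arrays of their group, and none passed the test between the groups (adjusted p = 0.930, 0.774 and 0.912, limma). Tpbpa, Eda2r, Fgf5 and Egr3 completed the 6 highest shifts of Flk1+Pdgfra+ 3, and Morc4, Cd34, Cdh5, Tgfb2 and Adgrl4 joined Hprt among the 6 lowest. On Flk1+ 3 the highest shifts were those of Enpp3, Pilra, Nanog, Acta2, Gbp2 and Optc. The lowest were those of H19, Gja4, Kcne3, Cldn5, Plagl1 and Hprt. The imprinted RNA H19 was at 8.85, 8.91 and 7.23 on Flk1+Pdgfra+ 1, 2 and 3, against 11.14, 10.90 and 6.48 on Flk1+ 1, 2 and 3, lowest of all on Flk1+ 3. The growth factor gene Tgfb2 was at 11.08, 10.94 and 8.23 on Flk1+Pdgfra+ 1, 2 and 3, against 8.73, 9.02 and 10.50 on Flk1+ 1, 2 and 3, so its order between the groups was turned on the third arrays.

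**Figure D4:**
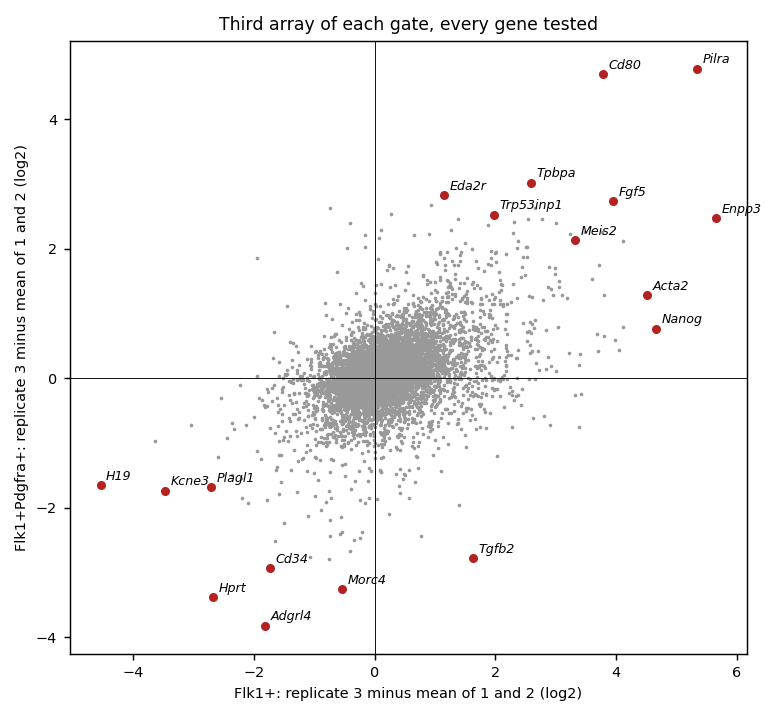
Each grey point is 1 of the 14860 genes. The vertical axis is replicate 3 minus the mean of replicates 1 and 2 in Flk1+Pdgfra+ and the horizontal axis the same in Flk1+ (log2). Some genes with large shifts, chosen after their values were seen, are in red and named. Pilra and Cd80 lie far up and Hprt and Adgrl4 far down in both groups, whereas Nanog, Acta2 and Enpp3 lie far to the right with smaller shifts in Flk1+Pdgfra+.

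Several gene lists shifted on both of the third arrays. The 24 targets of p53 had a median shift of 0.90 in Flk1+Pdgfra+ and 0.92 in Flk1+, with 7 of them 2-fold up on both, and 1 member, Pmaip1, rose between the gates (median -0.29), with a call kept only without Flk1+ 1 (0.0181) or Flk1+ 3 (0.0281). Cdkn1a, the p21 inhibitor of the cell cycle, was at 10.25, 10.47 and 12.18 on Flk1+Pdgfra+ 1, 2 and 3, against 10.99, 11.33 and 12.44 on Flk1+ 1, 2 and 3. The 28 serine, one-carbon and Atf4 target genes shifted by 0.93 and 0.72, with 6 of them 2-fold up on both. The arginine transporter Slc7a3 was at 9.29, 8.88 and 11.49 on Flk1+Pdgfra+ 1, 2 and 3, against 9.39, 9.11 and 11.55 on Flk1+ 1, 2 and 3, and on both genes the third arrays were the highest of each group. Immediate early genes shifted by 0.39 and 0.70, and the 18 cholesterol synthesis genes by -0.41 and -0.45. Endothelial genes were lower on both of the third arrays, with median shifts of -0.87 in Flk1+Pdgfra+ and -0.85 in Flk1+. Their median difference between the gates was -2.89, -2.94 and -2.64 at replicates 1, 2 and 3. Stem cell markers and epithelial genes shifted mainly in Flk1+, by 1.10 and 1.64, against 0.22 and -0.07 in Flk1+Pdgfra+. Cdkn1a and Slc7a3 were chosen after their values were seen.

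**Figure D5:**
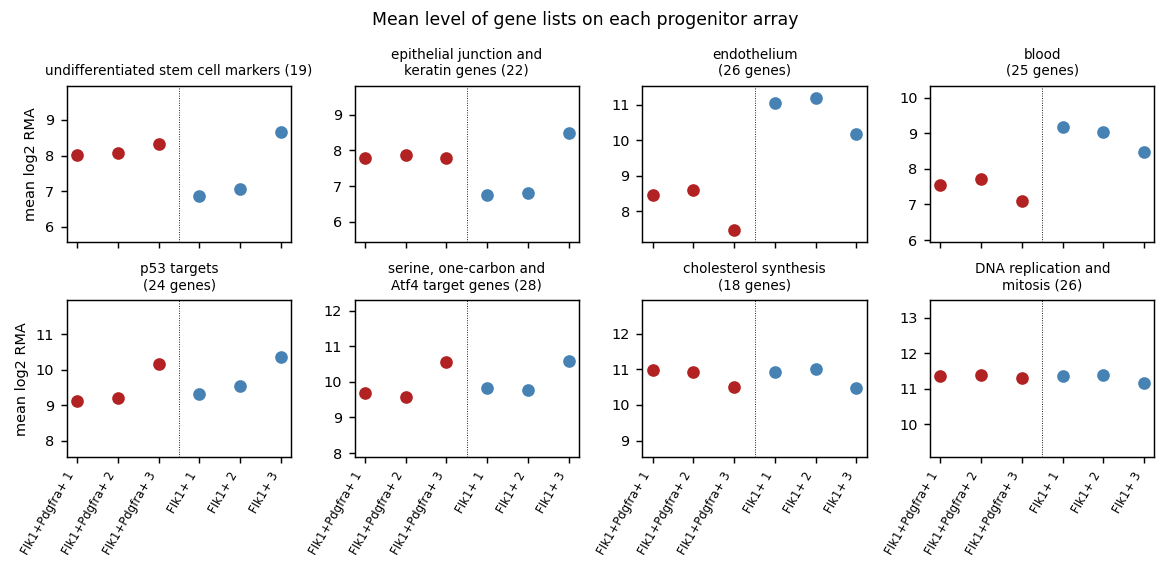
Mean log2 expression (vertical axis, each panel spanning the same number of log2 units) of 8 gene lists on each progenitor array, with the 3 Flk1+Pdgfra+ arrays in red left of the dotted line and the 3 Flk1+ arrays in blue right of it. Stem cell and epithelial means are lifted on Flk1+ 3 (8.66 and 8.50) to at or above the Flk1+Pdgfra+ arrays, p53 and Atf4 target means are lifted on both of the third arrays, and endothelial and blood means separate the groups on every array.

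The size of the differences between the gates was also read by replicate number, and the part of these shifts in it was not tested. At replicate 1 the groups differed at least 2-fold for 668 genes upward and 595 downward, at replicate 2 for 565 and 682, and at replicate 3 for 229 and 606. For genes that rose, the median difference was 0.76, 0.71 and 0.54 at replicates 1, 2 and 3, and for genes that fell it was -1.05, -1.13 and -0.88. Flk1+ 3 lay toward the Flk1+Pdgfra+ level, relative to Flk1+ 1 and 2, for 515 of the 690 genes that rose (74.6%) and for 624 of the 872 that fell (71.6%). Over all genes Flk1+ 3 lay above Flk1+ 1 and 2 for 48.4%. Differences of at least 2-fold at all 3 replicate numbers were seen for 122 genes upward and 362 downward. With replicates 1 and 2 only, 1148 genes passed as higher and 945 as lower, with 522 of the 690 rises and 740 of the 872 falls among them.

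The called genes were then placed by level, chromosome and promoter. Few dim genes were called: of 4 equal bins by mean over all arrays, 1.45% of the dimmest, 10.2% of the next, 16.9% of the one after and 13.5% of the brightest. By chromosome the called share ran between 7.95% on chromosome 17 and 12.5% on chromosome 11, and the median difference between 0.04 and 0.09. The reference table held 705 promoters of 560 genes that rose, 934 promoters of 675 genes that fell and 14927 promoters of 11894 tested genes. The longer ETS motif CCGGAAGT was in 5.96% of promoters of genes that rose, 2.03% of those of genes that fell and 5.71% of all. TTTCCT, which the Pdgfra promoter holds, was in 22.3%, 24.5% and 25.6%. The GATA motif AGATAA, which the Tek promoter holds, was in 6.52%, 6.53% and 8.87%, and TGATAA in 3.83%, 4.39% and 6.11%. The T-box motif AGGTGTGA of the Mesp1 promoter was in 0.851%, 0.535% and 1.13%. AACAAAG was in 4.96%, 4.39% and 4.63%, CAGATG in 10.6%, 12.1% and 13.5% and TGACTCA in 3.83%, 4.71% and 4.50%. These shares are descriptions of letters in a window of 300 bases, with no test.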

How the data were processed

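The values deposited by the authors are log2 expression per transcript cluster, made with RMA for core genes in the TAC software, per the labels. R 3.3.1 is also named, per the submitters' processing notes. Since RMA gives the probe signals of every array the same distribution, a difference in total RNA between arrays cannot be seen. The summarized values still differed slightly, with medians from 7.26 on Flk1+ 1 to 7.53 on Flk1+ 3. Neither library file version nor build is given in the sources used here, and no detection value was used, so folds of genes with a mean under the arrays' lower quartiles (5.60 to 5.69) are not exact. The table held 23332 transcript clusters (1.47 to 14.2, 0 missing values). Of these 14996 carried exactly 1 gene symbol, 1019 several and 7317 none; 14941 of the 1-symbol clusters were matched to RefSeq names (GRCm38.p6) by Entrez identifier. For the 135 genes with more than 1 cluster the brightest was kept, which left 14860 genes. The number of arrays limits the precision.

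Groups and replicate numbers came from the array titles. Tests were two-sided in limma 3.58.1 (R 4.3.3), by lmFit followed by eBayes with no trend (9 arrays, 1 coefficient per group, 6 residual and 2.23 prior degrees of freedom), adjusted by Benjamini-Hochberg over all genes and called under 0.05. The script was tested on simulated data. A rank-based exact test of 3 arrays against 3 cannot reach this threshold. Deviations from the group means correlated at 0.25, 0.32 and 0.46 between arrays of replicate numbers 1, 2 and 3. Arrays 1 and 2 of the groups correlated crosswise at 0.35 and 0.35, above the values of the same number. Because each deviation depends on all 3 arrays of its group, the shift of the third arrays enters these values too. Pairing of arrays 1 and 2 by number was thus not shown, and the block and the differences by replicate number only assume it. The result with the replicate number as a block stands in the text where it ends a call.

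The members, gene lists, families and tests were chosen with earlier results of these data known. Named by rule were the lineage markers, the 15 largest rises and falls of called genes with no overlap between the arrays of the groups (streak, endothelial and blood lists, predicted genes and immune receptor segments left out), the 8 smallest p-values in each direction, up to 3 called rises and falls of each list (or the smallest p where none was called) and, for replicate 3 of each group, the 6 highest and 6 lowest shifts from the mean of replicates 1 and 2. Further list members, and the members of families, were named after their values were seen. Alternatives were the block, other sets of arrays, a filter on dim genes, quantile normalization, median centring, moderation with trend and the mean of a gene's clusters.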

Additional observations from a re-analysis of the deposited data

How the results depend on the processing

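Of the called genes, 0 were called in the opposite direction under any alternative. With progenitor replicates 1 and 2 only, 1148 genes were higher, 945 lower and 1024 changed at least 2-fold, against 690, 872 and 648; the cause was not tested. Leaving out 1 progenitor array at a time gave 203 to 1306 higher, 461 to 1003 lower and 392 to 1022 at least 2-fold, highest in each case without Flk1+ 3 and lowest without Flk1+ 2. The replicate block gave 685 higher and 886 lower, 693 of them at least 2-fold, keeping 74.8% of the rises and 91.1% of the falls; of the 153 called genes named by rule it ended the calls of 10. The 6 progenitor arrays alone (713 and 966), removal of the dimmest 25% of genes (811 and 945), quantile normalization (775 and 922), median centring (634 and 776), moderation with trend (711 and 888) and the mean of a gene's clusters (688 and 871) stayed within 1.5 times. So did 2 alternatives chosen after seeing the data: leaving out each cTnT+ array (666 to 690 and 873 to 913) and the 6 arrays with the replicate block (813 and 1020). Median centring kept 65.7% of the rises. No background signal was used, so low levels were not set apart from background.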
